A study of Mus musculus with 4 samples.

Results

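The genes described here encode the CD3 chains and the first signalling proteins of the T cell antigen receptor, as transcribed in group 3 innate lymphoid cells (ILC3s) with and without the chromatin remodeller Brg1. They are the 4 chains Cd3d, Cd3e, Cd3g and Cd247, the kinases Lck, Fyn and Zap70, and the adaptors Lat and Lcp2. They were chosen by gene symbol, with earlier results of these data known, and make up 9 of the 53379 genes in the deposited table. All 9 passed the filter on low values and were among the 14739 genes tested.

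ILC3s of the small intestinal lamina propria came from mixed bone marrow chimeras. In these, marrow cells of a pair of donors were mixed and given to sublethally irradiated Rag2-/-Il2rg-/- mice, and cells were sorted 6 to 7 weeks later. The Brg1-sufficient group (controls) came from Thy1.2 Rag1-/-Smarca4f/f donors and was sorted as Thy1.2high Thy1.1- CD45low. The Brg1-deficient group came from Thy1.1 Thy1.2 Rag1-/-Smarca4f/f donors in which the floxed gene was deleted in the ILC3 lineage, and was sorted as Thy1.2high Thy1.1+ CD45low. Both groups therefore carried floxed Smarca4, the gene for Brg1, and lacked Rag1, without which antigen receptor genes are not rearranged and no mature T or B cells form. The Rag2-/-Il2rg-/- hosts lack their own T and B cells and nearly all of their own ILCs, but they keep stromal, epithelial and myeloid cells. RNA was sequenced from 2 libraries per group, which the paper calls biological duplicates. Values are FPKM, that is, fragments scaled for transcript length and library size, so levels can be set side by side between genes. Read counts were not used here and the depth of the libraries is unknown.

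Smarca4 was at 17.1 and 16.7 FPKM in controls, against 9.98 and 9.03 FPKM in Brg1-deficient cells. On the log2(FPKM + 1) scale used for every fold change here, as Brg1-deficient minus Brg1-sufficient, it differed by -0.77, with an adjusted p of 0.153 from limma. Il23r, the IL-23 receptor gene that ILC3s express, was between 209 and 268 FPKM and Thy1, used in the sort, between 114 and 157 FPKM across the 4 libraries. Ncr1, the gene for NKp46, which marks a subset of ILC3s, fell from 31.3 and 35.5 FPKM to 5.37 and 6.02 FPKM (log2 fold change -2.36, adjusted p = 0.0330). In bulk RNA of this kind, fewer cells of a subset and less RNA per cell cannot be told apart. By flow cytometry of mixed chimeras, the paper reports a smaller share of NKp46+ cells among Brg1-deficient small intestinal ILC3s.

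In T cells, CD3δ, CD3ε, CD3γ and the ζ chain encoded by Cd247 have no antigen-binding part of their own. They carry the tyrosine motifs (ITAMs) that turn binding by the receptor's variable chains into a signal. Lck and Fyn, kinases of the Src family, phosphorylate these motifs, Zap70 docks on the phosphorylated motifs and is activated by Lck, and Zap70 then phosphorylates the adaptors LAT (Lat) and SLP-76 (Lcp2), on which calcium, Ras and cytoskeletal signalling assemble. ILCs lack the rearranged receptor but share much of their early lymphoid programme with T cells. In NK cells and ILCs the ζ chain also pairs with activating receptors such as NKp46.

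The promoters of the 3 CD3 genes that lie side by side on chromosome 9, and of Lck, the gene with the smallest p of the 9, are shown first. Each sequence is the 250 bases before a RefSeq transcription start on GRCm38.p6, read 5′ to 3′ on the strand of the gene. The windows are chr9:44980432-44980681 on the minus strand for Cd3g, chr9:44981536-44981785 on the plus strand for Cd3d and chr9:45009612-45009861 on the minus strand for Cd3e. For Lck they are chr4:129573642-129573891 and chr4:129558373-129558622, both on the minus strand. Lck is known for having 2 promoters, of which the downstream one (proximal) is used mainly in thymocytes and the upstream one (distal) also in mature T cells. Capitals mark the E-box CANNTG, the motif of the E proteins that drive early T lineage genes, and the ETS core GGAAGT, each read on either strand, so that the complement of the ETS core is capitalised too.
Cd3g: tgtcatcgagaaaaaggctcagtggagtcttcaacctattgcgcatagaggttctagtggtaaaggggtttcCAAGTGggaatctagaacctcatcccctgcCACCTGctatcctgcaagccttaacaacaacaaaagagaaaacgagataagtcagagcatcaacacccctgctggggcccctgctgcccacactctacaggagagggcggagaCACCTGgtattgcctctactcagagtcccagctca
Cd3d: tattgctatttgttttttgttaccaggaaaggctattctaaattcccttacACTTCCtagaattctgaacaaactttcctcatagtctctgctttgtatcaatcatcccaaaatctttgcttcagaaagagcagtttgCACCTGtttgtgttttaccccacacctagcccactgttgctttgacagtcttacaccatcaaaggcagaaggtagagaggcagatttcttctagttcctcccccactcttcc
Cd3e: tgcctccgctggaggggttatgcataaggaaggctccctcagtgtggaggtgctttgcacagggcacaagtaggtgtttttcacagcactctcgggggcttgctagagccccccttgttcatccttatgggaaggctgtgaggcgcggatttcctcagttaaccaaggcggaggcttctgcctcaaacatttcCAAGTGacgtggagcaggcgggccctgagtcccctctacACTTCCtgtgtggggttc
Lck, upstream start: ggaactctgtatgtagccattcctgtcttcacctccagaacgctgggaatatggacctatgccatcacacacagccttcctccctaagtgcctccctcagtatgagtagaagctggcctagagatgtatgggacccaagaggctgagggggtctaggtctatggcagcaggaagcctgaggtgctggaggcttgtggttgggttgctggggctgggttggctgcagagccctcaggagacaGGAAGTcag
Lck, downstream start: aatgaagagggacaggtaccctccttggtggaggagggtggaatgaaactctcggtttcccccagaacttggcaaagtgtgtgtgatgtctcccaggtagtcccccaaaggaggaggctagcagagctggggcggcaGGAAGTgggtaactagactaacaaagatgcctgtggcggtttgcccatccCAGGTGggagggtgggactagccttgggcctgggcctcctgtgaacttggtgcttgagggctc

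Cd3g held 3 E-boxes in its window, and Cd3d and Cd3e held 1 each. The ETS core was present once before Cd3d, once before Cd3e and once before each Lck start, and these letters were not found before Cd3g. The 9 genes had 12 RefSeq promoters in all. In those not printed, Cd247 held 2 E-boxes and 1 ETS core, Lat 2 E-boxes, Lcp2 1 E-box and Fyn none, while the 3 Zap70 starts held 3, 1 and 1 E-boxes and the second of them 1 ETS core. Of 32851 RefSeq promoters of the same length, 66.2% held an E-box and 19.7% an ETS core on either strand. The RUNX letters TGTGGT, found in 14.0% of all promoters, were present on either strand in the upstream Lck window (in lower case above) and at the second Zap70 start. TATAAA was found in 12.4% of all promoters and in 0 of these 12. The E-box and ETS letters shared no base with each other in the printed windows. These matches describe letters only, and binding was not measured here. The deposited values are per gene and do not say which Lck start was used.

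The 4 CD3 chains were all lower in both Brg1-deficient libraries than in either control library, and the adaptors and Zap70 were not. Of the 9 genes, 6 were lower without overlap of the groups (the 4 CD3 chains, Lck and Fyn), against 20.2% of all genes tested, 2 were higher without overlap (Zap70 and Lcp2), against 24.4% of all genes tested, and 1 overlapped (Lat). The median log2 fold change was -1.09 over the 9 genes and 0.03 over all genes tested. None of the 9 had an adjusted p under 0.05 by limma, a call made for 45 genes or 0.305% of those tested. At an unadjusted p under 0.05, 5 of the 9 were lower (Cd3d, Cd3e, Cd3g, Lck and Fyn), against 6.47% of all genes tested, and 0 were higher. That count of 5 was 1 without the first Brg1-sufficient library and 2 without any other single library. For any 1 gene, the smallest two-sided p that an exact permutation of 2 against 2 libraries allows is 0.333.

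**Figure D1:**
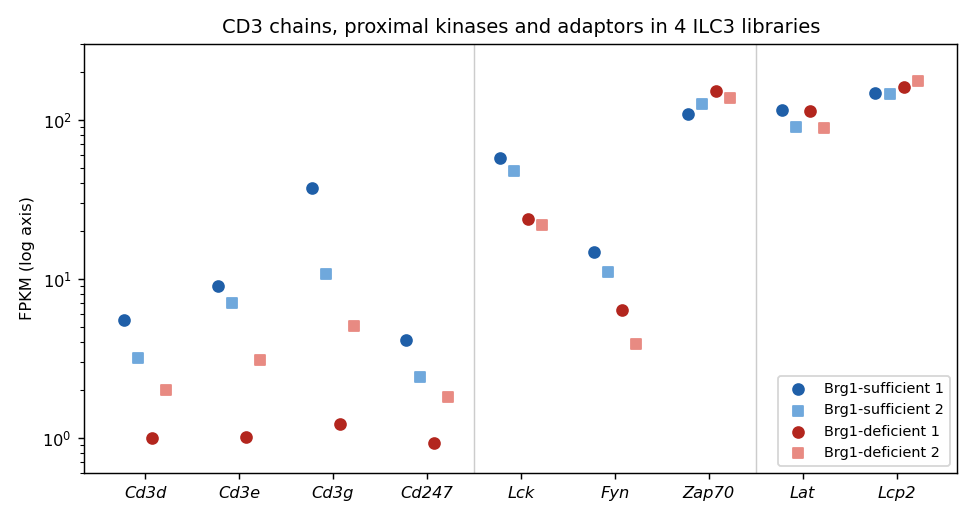
FPKM of each gene (log axis) in each of the 4 libraries, with CD3 chains on the left, kinases in the middle and adaptors on the right. The CD3 chains lie between 0.930 and 37.2 FPKM with the Brg1-deficient libraries lowest, and Zap70, Lat and Lcp2 lie between 88.9 and 176 FPKM in every library.

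Cd3g, the gene of the γ chain, was the most abundant CD3 chain in controls and had the largest fold change of the 9 genes. It was at 37.2 and 10.7 FPKM in controls, against 1.21 and 5.04 FPKM in Brg1-deficient cells. Each group spread widely, 3.46-fold between the control libraries and 4.17-fold between the Brg1-deficient libraries, but the groups did not overlap. The means were 24.0 ± 18.7 and 3.12 ± 2.71 FPKM (SD, n = 2 each), and the log2 fold change was -2.53 (95% interval -4.30 to -0.77, adjusted p = 0.244). With 1 library omitted at a time it ran from -3.39 to -1.68.

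Cd3e encodes the ε chain, which pairs with both γ and δ and without which no receptor reaches the surface of a T cell. It was at 8.95 and 7.02 FPKM in controls, against 1.01 and 3.08 FPKM in Brg1-deficient cells. The control libraries were close together and the 2 Brg1-deficient libraries were 3.05-fold apart. The Brg1-deficient mean was 25.6% of the control mean, with a log2 fold change of -1.64 (95% interval -2.61 to -0.67, adjusted p = 0.184).

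Cd3d, the gene of the δ chain, was at 5.46 and 3.17 FPKM in controls, against 1.0 and 1.99 FPKM in Brg1-deficient cells. All 4 values were low, and 30.9% of the genes tested had a mean level as low or lower. The Brg1-deficient mean was 34.6% of the control mean (log2 fold change -1.09, 95% interval -1.98 to -0.19, adjusted p = 0.316). The added 1 FPKM understates the fold change at such levels.

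Cd247, the gene of the ζ chain, was the lowest of the 9 genes in every library. It was at 4.09 and 2.42 FPKM in controls, against 0.930 and 1.80 FPKM in Brg1-deficient cells. The groups did not overlap, but the interval of the log2 fold change of -0.84 (-1.73 to 0.04, adjusted p = 0.417) included 0. Cd247 (chr1:165788681-165877277, plus strand) shares 12124 bases of its span with Pou2f1 on the opposite strand, and the counting is not stated to use strand, so reads in the shared stretch are uncertain. Pou2f1 was at 17.3 and 11.7 FPKM in controls, against 10.6 and 6.78 FPKM in Brg1-deficient cells, so it too was lower without overlap.

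The libraries within a group stood in the same order for all 4 chains. The first control library was above the second and the second Brg1-deficient library above the first for Cd3d, Cd3e, Cd3g and Cd247, an order shared by 1 of the 5 other genes (Lcp2) and by 21.5% of all genes tested. The sum of the 4 chains was 55.7 and 23.4 FPKM in controls and 4.15 and 11.9 FPKM without Brg1. The chains did not keep fixed proportions between the control libraries. In the first Brg1-deficient library all 4 chains lay between 0.930 and 1.21 FPKM, so ratios there are uncertain. Cd3e relative to Cd3g was 0.241 and 0.654 in the control libraries and 0.835 and 0.611 in the Brg1-deficient libraries, and the first control library had by far the most Cd3g for its Cd3e.

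Markers of other lymphocytes differed between the groups as well. Of 12 T cell markers, 9 were tested, of which 6 were lower and 1 higher in the Brg1-deficient libraries without overlap (20.2% and 24.4% of all genes tested, as for each marker list here). Their summed level was 379 to 516 FPKM in controls and 253 to 268 FPKM in the Brg1-deficient libraries. No marker was listed at 0 in every library. The fall of the sum lay mostly in the β constant regions Trbc1 and Trbc2, which also belong to a pathway list below. Trbc1 was at 110 and 62.5 FPKM in controls, against 10.6 and 10.3 FPKM, and Trbc2 at 186 and 146 FPKM, against 74.7 and 56.8 FPKM. Tcf7, the 1 higher marker, was at 129 and 127 FPKM in controls, against 134 and 163 FPKM. The order of libraries seen in the CD3 chains was shared by 5 of the 12 (Trac, Cd8a, Cd8b1, Cd6 and Tcf7). Trac, the T cell receptor α constant region, was at 33.6 and 4.86 FPKM in controls, against 5.08 and 12.5 FPKM in Brg1-deficient cells, and these groups overlapped. Cd8b1, the β chain of CD8, was at 4.38 and 0.580 FPKM in controls, against 0.740 and 1.94 FPKM in Brg1-deficient cells. Cd5, a defining T cell marker, was under 1 FPKM in all 4 libraries. Among the markers lower without overlap, the costimulatory receptor gene Cd28 was at 4.05 and 1.5 FPKM in controls, against 0.590 and 0.550 FPKM in Brg1-deficient cells. Themis, at 1.56 FPKM in both controls, was at 0.360 and 0.770 FPKM, and Bcl11b, a T lineage transcription factor, was at 1.39 and 1.49 FPKM in controls, against 0.510 and 0.570 FPKM. None of these 3 had an adjusted p under 0.05. As stated above, neither the donors nor the hosts form mature T cells. Which cells held these transcripts was not tested.

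The ILC2 markers also stood lower in Brg1-deficient libraries, with 8 of 9 tested lower and 1 higher without overlap. Their sums were 215 to 415 FPKM in controls and 116 to 141 FPKM without Brg1. Gata3 made up most of the latter sums, at 74.5 and 105 FPKM, against 183 and 110 FPKM in controls. Ccr8 was at 51.7 and 8.41 FPKM in controls, against 0.230 and 0.240 FPKM in Brg1-deficient cells. Klrg1 was at 42.15 and 11.0 FPKM in controls, against 1.64 and 2.19 FPKM. The 1 higher marker was Hpgds, at 2.31 and 6.61 FPKM in controls, against 20.6 and 19.9 FPKM. Of the 9, 0 had an adjusted p under 0.05. The order of libraries seen in the CD3 chains was shared by 4 of the 10 listed ILC2 markers. Il1rl1, Il5, Il13, Ccr8 and Ccl1 were under 1 FPKM in both Brg1-deficient libraries, where their order says little. In controls all of these were higher in the first library, while Areg and Hpgds were higher in the second. Of 12 markers of ILC1s and NK cells tested, 8 were lower and 2 higher without overlap, while their sum was 327 to 483 FPKM in controls and 469 to 658 FPKM in the Brg1-deficient libraries. The largest part of the latter sum was Gzma, a granzyme gene. It was at 50.8 and 103 FPKM in controls, against 397 and 218 FPKM in Brg1-deficient cells. The other higher marker was Klrk1, and the median log2 fold change of the list was -1.34. Among the 8 lower markers, Ifng was at 22.8 and 37.3 FPKM in controls, against 3.42 and 3.22 FPKM (limma adjusted p = 0.0386). Tbx21, the gene for T-bet, was at 4.21 and 6.04 FPKM in controls, against 1.28 and 0.90 FPKM. Ifng and Ncr1 were the only called genes of this list, and both fell. ILC3 markers summed to 11267 to 13307 FPKM in controls and 14629 to 26064 FPKM in the Brg1-deficient libraries, with 3 of 12 lower and 3 higher without overlap. Il22 made up most of each ILC3 sum, at 8328 and 10408 FPKM in controls, against 21159 and 10408 FPKM in Brg1-deficient cells. The value of 21159 FPKM was the largest of all genes. Sorted values were nearly the same across libraries, so steps of this gene follow its rank and the amounts are uncertain. Of 8 B cell and plasma cell markers, 6 were under 1 FPKM in every library, and the sums were 26.1 to 33.2 and 36.2 to 49.7 FPKM. The sums were 104 to 235 and 77.1 to 215 FPKM for markers of macrophages, dendritic cells and neutrophils, 9.08 to 11.0 and 6.96 to 7.18 FPKM for mast cells, 5.05 to 6.29 and 16.5 to 19.8 FPKM for epithelium, and 66.1 to 91.0 and 68.0 to 70.3 FPKM for stroma and endothelium. The rise of the epithelial sum lay mostly in Krt18, at 2.02 and 3.48 FPKM in controls, against 15.7 and 12.9 FPKM in Brg1-deficient cells. Krt8 was higher too (log2 fold change 1.31). Epcam was lower without overlap (log2 fold change -0.72), and Vil1, Fabp2 and Muc2 were under 1 FPKM in every library. Whether epithelial cells were more frequent in either group was not tested. No marker of these lists was listed at 0 in every library. What these cells contributed to the levels of the 9 genes was not tested.

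Lck and Fyn were both lower in the Brg1-deficient libraries, by similar factors. Lck, which also binds the coreceptors CD4 and CD8, was at 57.5 and 47.5 FPKM in controls, against 23.8 and 21.8 FPKM in Brg1-deficient cells. The control libraries were 1.21-fold apart and the Brg1-deficient libraries 1.09-fold apart, and the gap between the groups was wider than the spread in either. The means were 52.5 ± 7.10 and 22.8 ± 1.40 FPKM (SD, n = 2 each), 2.30-fold lower, and the log2 fold change was -1.16 (95% interval -1.58 to -0.75). This was the smallest p of the 9 genes (0.000641, limma), and its adjusted p was 0.0843. When only genes with a mean above 5 FPKM were tested, the adjusted p of Lck was 0.0451, and it ranged from 0.0119 to 0.602 over all alternatives.

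Fyn, which overlaps with Lck in function, was at 14.6 and 11.0 FPKM in controls, against 6.37 and 3.91 FPKM in Brg1-deficient cells. It was lower without overlap, with a log2 fold change of -1.18 (95% interval -1.88 to -0.49, adjusted p = 0.181). Lck exceeded Fyn 3.93-fold and 4.33-fold in the control libraries and 3.73-fold and 5.58-fold in the Brg1-deficient libraries, so the ratios of the groups overlapped.

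Zap70, the kinase that docks on phosphorylated ITAMs, was abundant and was not lower. It was at 109 and 126 FPKM in controls, against 152 and 137 FPKM in Brg1-deficient cells, and 94.9% of genes tested had a mean level as low or lower. Both Brg1-deficient libraries were above both controls, with a log2 fold change of 0.30 (95% interval -0.07 to 0.67, adjusted p = 0.488). Relative to Lck, Zap70 was 1.89 and 2.64 in the control libraries and 6.40 and 6.27 in the Brg1-deficient libraries, without overlap. Its relative Syk, which also docks on ITAMs and predominates in B and myeloid cells, was between 0.640 and 1.80 FPKM, so Zap70 exceeded it between 69.8-fold and 238-fold across the 4 libraries.

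**Figure D2:**
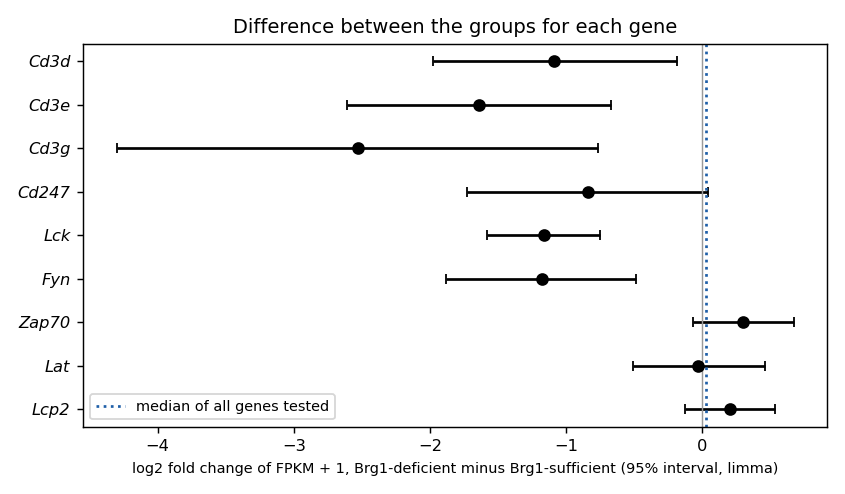
Log2 fold change of FPKM + 1 for each gene, Brg1-deficient minus Brg1-sufficient, with its 95% interval from limma (n = 2 libraries per group). The estimates run from -2.53 for Cd3g to 0.30 for Zap70, and the dotted line marks the median of all genes tested, 0.03.

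The adaptors differed little between the groups. Lat, the membrane scaffold, was at 115 and 90.7 FPKM in controls, against 113 and 88.9 FPKM in Brg1-deficient cells. The groups overlapped, and the log2 fold change was -0.03 with a 95% interval of -0.51 to 0.46, which leaves changes within that range undetected. Lcp2, the gene of the cytosolic scaffold SLP-76, was the most abundant of the 9 genes in every library, at 147 and 146 FPKM in controls, against 160 and 176 FPKM in Brg1-deficient cells. Its log2 fold change was 0.20 (95% interval -0.13 to 0.53, adjusted p = 0.603). Lcp2 relative to Lat was 1.28 and 1.61 in controls and 1.42 and 1.98 in the Brg1-deficient libraries, which overlapped.

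In order of level, Lcp2 came first, Lck next after Zap70 and Lat, and Cd3e, Cd3d and Cd247 last in all 4 libraries. Zap70 and Lat exchanged places between libraries, as did Cd3g and Fyn. In controls the means of Zap70 and Lat, of Cd3g and Fyn, and of Cd3d and Cd247 differed by less than the larger of their SDs. In the Brg1-deficient group this also held for each neighbouring pair from Fyn down to Cd247. Brg1-deficient ILC3s therefore held the adaptors and Zap70 at 88.9 FPKM or more and every CD3 chain at 5.04 FPKM or less.

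Cd3g, Cd3d and Cd3e are neighbours on chromosome 9 of GRCm38. Cd3g (chr9:44969572-44980431, minus strand) and Cd3d (chr9:44981786-44987339, plus strand) start head to head, 1355 bases apart, and Cd3e (chr9:44998740-45009627, minus strand) starts 29.2 kb from Cd3g. Of 54 other genes tested within 1 Mb of the Cd3g start, 5 were lower and 20 higher without overlap (20.2% and 24.4% of all genes tested), 0 had an adjusted p under 0.05, and the median log2 fold change was 0.16 with a range of -1.18 to 0.96. The 7 others tested within 100 kb, among them Kmt2a and Ube4a, lay between 0.01 and 0.45. Thy1, whose alleles mark the donors, starts 937 kb from Cd3g, and only the Brg1-deficient donors carried the Thy1.1 allele. DNA linked to that allele and the loss of Brg1 cannot be told apart in this design for the genes of this region.

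**Figure D3:**
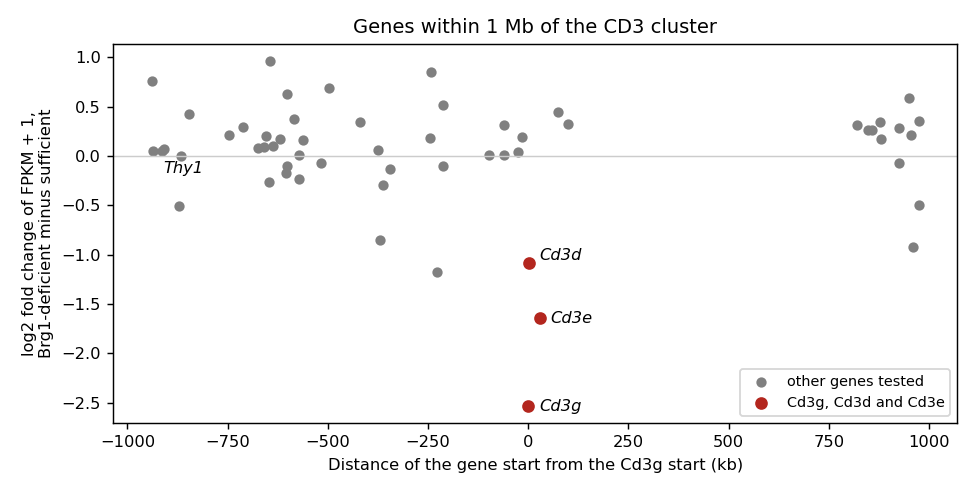
Log2 fold change of FPKM + 1 (Brg1-deficient minus Brg1-sufficient) of the genes tested within 1 Mb of the Cd3g start, by distance in kb along chromosome 9. Cd3g, Cd3d and Cd3e (red) stand at -2.53, -1.09 and -1.64, and the other 54 genes (grey) lie between -1.18 and 0.96.

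The other genes of the pathway were taken from 7 lists, with 103 genes found in the table and 90 tested. Of these, 4 fell and 0 rose at an adjusted p under 0.05. Without overlap of the groups 30 were lower and 20 higher, and the median log2 fold change was -0.12. Over all genes tested these shares were 20.2% lower and 24.4% higher with a median of 0.03, which is the background for the count of each list that follows.

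The constant regions of the antigen receptor genes had the lowest median of the 7 lists, with 6 of 7 tested lower without overlap and a median of -1.28. Trbc1, a β chain constant region, fell from 110 and 62.5 FPKM to 10.6 and 10.3 FPKM (log2 fold change -2.88, adjusted p = 0.0414). Tcrg-C4, a γ chain constant region, fell from 85.5 and 115 FPKM to 20.1 and 15.2 FPKM (log2 fold change -2.44, adjusted p = 0.0386). Trbc2, the other β constant region, was at 186 and 146 FPKM in controls, against 74.7 and 56.8 FPKM in Brg1-deficient cells, with an adjusted p of 0.0920. Trbc1 and Trbc2 are near-identical copies, as are several γ constant regions, so the division of reads between them is uncertain.

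Among the other signalling adaptors, Cd79b, an ITAM chain of the B cell receptor, fell from 8.68 and 10.0 FPKM to 1.03 and 0.990 FPKM (log2 fold change -2.36, adjusted p = 0.0386). Its partner Cd79a was under 1 FPKM in every library. Fcer1g, the ITAM chain that pairs with Fc receptors and can take the place of the ζ chain, was at 834 and 797 FPKM in controls, against 774 and 852 FPKM in Brg1-deficient cells, which overlapped. It exceeded Cd247 by 204-fold and 329-fold in controls and by 833-fold and 474-fold in the Brg1-deficient libraries. Tyrobp (DAP12) and Hcst (DAP10), adaptors of activating NK receptors, had log2 fold changes of -0.65 and -0.28 with adjusted p of 0.417 and 0.537.

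Of 25 partners of LAT and SLP-76 tested, 9 were lower and 6 higher without overlap, with a median of -0.06, and 1 passed the adjusted threshold. Fyb (ADAP), which binds SLP-76 and links the receptor to integrins, fell from 52.4 and 41.3 FPKM to 6.76 and 9.69 FPKM (log2 fold change -2.38, standard error 0.228, adjusted p = 0.0386). Skap1, the partner that ADAP binds and stabilises in T cells, was at 97.0 and 98.0 FPKM in controls, against 167 and 169 FPKM in Brg1-deficient cells (0.78, adjusted p = 0.0995). Grap, an adaptor related to Grb2, was at 11.3 and 11.4 FPKM in controls, against 3.96 and 3.47 FPKM in Brg1-deficient cells (-1.39, adjusted p = 0.0773). The calls for Trbc1, Tcrg-C4, Cd79b and Fyb were lost with no filter on low values and without the trend of variance on expression. In both settings 0 of all genes tested were called, so this loss is not particular to these 4 genes. With 1 library left out, a group holds 1 library, and their log2 fold changes lay between -3.28 and -2.15.

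The remaining kinases and regulators had no gene past the threshold. Of the other Src, Syk and Tec family kinases, 1 of 8 tested was lower and 3 higher without overlap, with a median of -0.09. Blk was at -0.64 on the log2 scale (adjusted p = 0.302), and the Tec family kinase Txk was at 0.21. Of 13 genes that control Lck and Fyn, 3 were lower and 4 higher without overlap, with a median of -0.12. Among them were the Csk anchor Pag1 at -0.84 (adjusted p = 0.256), the phosphatase gene Ptpn6 at 0.64 (adjusted p = 0.326) and the Lck-binding coreceptor Cd4 at -0.73 (adjusted p = 0.259). Of 20 genes of the downstream branches, 5 were lower and 2 higher without overlap with a median of -0.10, the named ones being the Ras activator Rasgrp2 at -1.61, Malt1 of the NF-κB branch at -0.63 and the calcium channel gene Itpr1 at -0.46. Of 13 negative regulators, 3 were lower and 5 higher without overlap with a median of 0.19, including Dok2 at -1.02 (adjusted p = 0.175), Sla at -0.52 and Sla2 at 0.62.

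**Figure D4:**
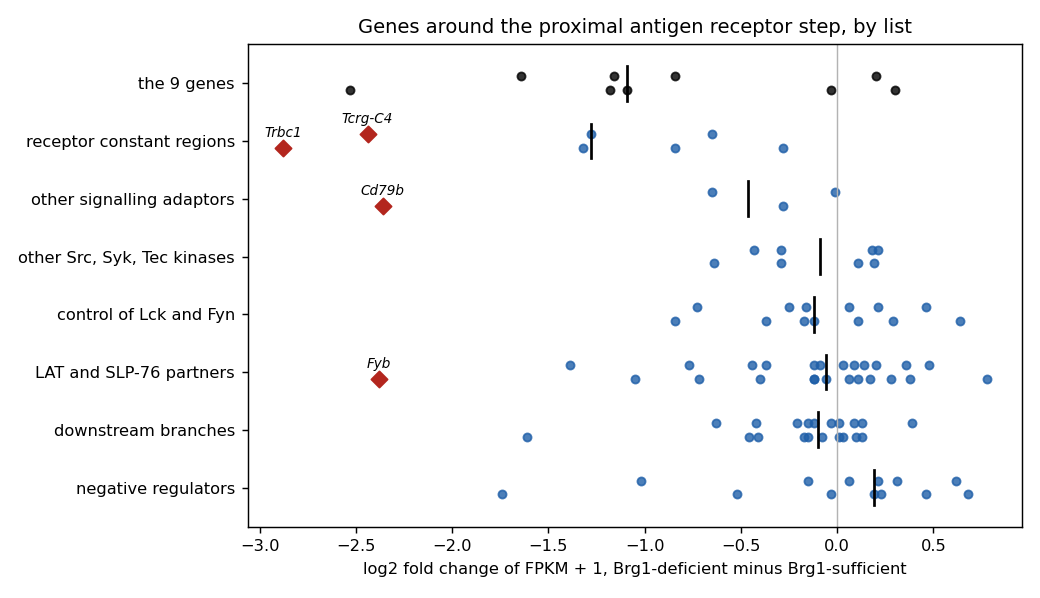
Log2 fold change of FPKM + 1 (Brg1-deficient minus Brg1-sufficient) of each gene tested, 1 row per list, with vertical bars at list medians and red diamonds at the genes with an adjusted p under 0.05. The called genes Trbc1, Tcrg-C4, Cd79b and Fyb lie between -2.88 and -2.36, and the medians of the lists run from -1.28 for the constant regions to 0.19 for the negative regulators.

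The genes most like each of the 9 across the libraries were found among 9095 genes with a mean above 5 FPKM, by the root mean square difference of log2(FPKM + 1) after each gene was centred on its mean over 4 libraries. For Cd3e these were Trbj2-1 (0.0772), Cd74 (0.104), the invariant chain of MHC class II, and Gm45456 (0.152). For Cd3d they were Gm5453 (0.0748), Satb1 (0.0769), a chromatin organiser of thymocytes, and Cd27 (0.0873). Cd3g had no close match, with Plac8 (0.240), Gm24000 (0.311) and Kcnn4 (0.339) nearest. The nearest to Cd247 were Chsy1 (0.0488), Dnaja4 (0.0555) and Dnajb13 (0.0701). For Lck they were 4833412C05Rik (0.0320), Card19 (0.0448) and Ecm1 (0.0459), and for Fyn they were Cryaa (0.0804), Smim3 (0.0835) and Prnp (0.0844). Zap70 had Klf11 (0.00720), Itfg2 (0.0134) and Brd2 (0.0163), Lat had Polr2c (0.0169), Ndfip2 (0.0187) and Sar1a (0.0197), and Lcp2 had Vamp4 (0.0104), Cnot10 (0.0117) and Trim12a (0.0120). With 4 libraries many genes can share a pattern, and these matches are a description only.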

How the data were processed

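RNA of sorted ILC3s was sequenced in 2 Brg1-sufficient and 2 Brg1-deficient libraries. The authors mapped reads to GRCm38.p5 with STAR 2.5, quantified genes with RSEM 1.2 on GENCODE M16 and deposited an FPKM table. Of 13693 ranks with a mean above 1 FPKM, 13596 (99.3%) of the sorted deposited FPKM values differed by less than 1% across the libraries, as quantile normalization gives, so a difference in total RNA would not be seen. Libraries were grouped by donor genotype, as the labels give it. The paper calls the 2 libraries of a group biological duplicates. The labels do not say whether they came from separate animals or pools, and p-values measure the spread between these libraries.

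The test was run on the 14739 genes whose mean was above 1 FPKM in at least 1 group. It was limma 3.58.1 in R 4.3.3 (lmFit, then eBayes with the trend option), on log2 values of FPKM + 1, with two-sided p-values and Benjamini-Hochberg adjustment over these genes. The fit was also run on simulated data with independent noise and changes placed only in genes with a mean above 5 FPKM. Cd3d and Cd247 have means below that level, so the run does not bear on them. The 9 genes and all gene lists (7 of the pathway, 9 of cell type markers) were chosen with earlier results of these data known. Named were the 9 genes, the pathway genes with an adjusted p under 0.05, the 3 per list with the largest change among those with a mean above 5 FPKM, and the 3 genes most like each of the 9. Fcer1g, Syk, Cd79a, Tcf7 and other marker genes were named beside these after their values were seen. Some genes and a detail of the donors' genotype are not reported here. Positions are from GENCODE M21 on GRCm38, where all 9 genes were found by identifier, and promoters from RefSeq (GRCm38.p6). The alternatives were a pseudocount of 0.1, no filter, a mean above 5 FPKM, 3 other scalings, no trend, the replicate number as a block, and leaving out each library.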

Additional observations from a re-analysis of the deposited data

How the results depend on the processing

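The 9 genes kept the direction of their log2 fold changes under every alternative, except Lat. Lat, at -0.03 with all libraries, ranged from -0.20 to 0.15 with 1 omitted. It was at 0.14 without the first Brg1-sufficient library and at 0.15 without the second Brg1-deficient library. These directions were largely fixed in advance. The filters, the trend and the block leave a log2 fold change as it is. Groups that do not overlap cannot change order when 1 library is left out. The libraries were already on nearly the same scale, with median-of-ratios factors of 0.982 to 1.014. The count of the 9 genes called at an adjusted p under 0.05 was 0 with all genes above 1 FPKM, 1 with a mean above 5 FPKM (Lck) and 3 with the replicate block (Cd3e at 0.0476, Lck at 0.0119 and Fyn at 0.0280). The numbers shared by the groups are not said to pair the libraries, and same-numbered libraries did not deviate together (correlation across genes -0.000386). Leaving out each library in turn gave 0 calls among the 9 genes, a median log2 fold change over them of -1.30 to -0.77, and 0 genes called in either direction among all tested, where 33 were lower and 12 higher with all libraries. Those counts of lower and higher genes were 0 and 0 with no filter (1400 and 1308 at an unadjusted p under 0.05), 0 and 0 without the trend (965 and 903), 73 and 41 with a mean above 5 FPKM, and 248 and 150 with the replicate block. The same block added 4 named pathway genes to the calls (Dok2, Grap, Skap1 and Trbc2) and removed none. With a library left out, 509 to 1331 genes were lower and 521 to 1489 higher at an unadjusted p under 0.05. The depth is unknown, so what it limits could not be computed.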
